A study of Mus musculus with 22 samples.

Results

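The CC chemokine genes of inguinal adipose tissue were followed across diet and tumor. The set holds 10 genes, Ccl2, Ccl3, Ccl4, Ccl5, Ccl6, Ccl7, Ccl8, Ccl9, Ccl11 and Ccl12, taken by their symbols from the 23420 genes of the count table. All 10 were among the 14458 genes that passed the filter on low counts. They were measured by RNA-sequencing in female wildtype C57Bl/6 mice, 5 kept lean on chow and 6 made obese on high fat diet (HFD), each diet given for 16 weeks. Cells of the breast cancer line E0771, which comes from a C57Bl/6 mouse, were injected in PBS and Matrigel into the left inguinal/mammary pad of every mouse at about 20 weeks of age, and this pad is called tumor-associated inguinal white adipose tissue (IWAT). The right pad of the same mouse received PBS and Matrigel without cells and is called control IWAT, so the control tissue also comes from tumor-bearing animals. Both pads were taken 2 weeks later. The inguinal lymph node was removed, and the fat lying directly on the tumor was discarded. The 22 libraries of 11 mice form 4 groups, lean control and lean tumor-associated IWAT with 5 libraries each, and obese control and obese tumor-associated IWAT with 6 libraries each. Because E0771 is a mouse line, reads of carcinoma cells and of host cells cannot be told apart.

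CC chemokines are small secreted proteins with adjacent cysteines near the amino end. They bind G protein-coupled receptors on leukocytes and draw these cells towards the place of release. In adipose tissue they are known mainly for recruiting monocytes from the blood, which become macrophages in the tissue. The monocyte chemoattractants CCL2, CCL7 and CCL12 act through CCR2. CCL3, CCL5, CCL6 and CCL9 act through CCR1, and the eotaxin CCL11 attracts eosinophils through CCR3.

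Each library held 5759775 to 8598108 counts on genes, of which the 10 chemokine genes took 0.0123% to 0.223%. Levels are given as CPM, counts scaled to a library total of 1000000 after TMM normalization, and values are listed in the order of the mouse numbers (0, 2, 3, 6 and 9 in lean mice). The tissue label was checked against 7 adipocyte genes, whose summed level was 1801 to 22804 CPM over the libraries. Some libraries stood apart from their group. Obese control mice 1 and 3 held 473 and 439 summed CPM of 5 B cell genes, against 2.00 to 10.5 CPM in the other 4 obese control libraries, and mouse 1 also held 1907 summed CPM of 4 skeletal muscle genes, against at most 38.4 CPM in the others. Obese tumor-associated mouse 4 had the lowest adipocyte (1801 CPM), fibroblast (1804 CPM) and macrophage (1567 CPM) sums of its group. The sample titles of these 3 libraries carry a 2 that the other titles lack, whereas the columns of the count table carry it for all 22, and what it stands for is not given. Obese tumor-associated mouse 3 held 110 summed CPM of the B cell genes, against at most 5.01 CPM in the others of its group. Lean tumor-associated mouse 2 had the highest macrophage sum of its group (3165 CPM). In whole tissue, more cells of a type and more RNA per cell cannot be told apart.

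The 10 genes lie on mouse chromosome 11 in a pair of clusters (build GRCm38, GENCODE annotation). The first holds Ccl2, Ccl7, Ccl11, Ccl12 and Ccl8, in this order, all on the plus strand within 81.2 kb, from chr11:82035571 to chr11:82116799. The second holds Ccl5, Ccl9, Ccl6, Ccl3 and Ccl4 within 138.9 kb, from chr11:83525778 to chr11:83664683, with Ccl4 on the plus strand and the others on the minus strand. Between the clusters lie 1409.0 kb. The annotated exons of the 10 genes share no run of more than 25 bases with each other, the longest between Ccl6 and Ccl9. Ccl2 overlaps the gene Gm17268, and Ccl6 the transcript E230016K23Rik, each on the other strand with 0 shared exon bases. The strand setting of the counting is not given in the sources used here.

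Promoter sequences from RefSeq (GRCm38.p6, 250 bases before to 50 after the gene start) matched 5 of the 10 genes. Those of Ccl8 and Ccl12, neighbours in the first cluster, and of Ccl6 and Ccl9, neighbours in the second, are printed because each pair moved with the tumor in both diets, as given further on. They are chr11:82114935-82115234 (plus strand) for Ccl8, chr11:82101595-82101894 (plus strand) for Ccl12, chr11:83593038-83593337 (minus strand) for Ccl6 and chr11:83578587-83578886 (minus strand) for Ccl9. Capitals mark matches to the motifs searched, and each sequence reads 5′ to 3′ along the gene.
Ccl8: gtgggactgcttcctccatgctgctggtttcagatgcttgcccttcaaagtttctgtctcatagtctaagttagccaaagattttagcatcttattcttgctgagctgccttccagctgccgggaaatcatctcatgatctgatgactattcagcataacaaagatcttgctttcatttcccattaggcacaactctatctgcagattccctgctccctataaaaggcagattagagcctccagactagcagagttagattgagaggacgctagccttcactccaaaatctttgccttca
Ccl12: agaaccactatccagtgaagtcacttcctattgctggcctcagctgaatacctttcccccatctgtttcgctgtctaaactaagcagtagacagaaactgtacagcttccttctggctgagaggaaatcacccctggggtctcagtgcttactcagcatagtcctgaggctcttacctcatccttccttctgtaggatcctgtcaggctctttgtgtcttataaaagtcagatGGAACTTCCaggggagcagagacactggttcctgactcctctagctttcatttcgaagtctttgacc
Ccl6: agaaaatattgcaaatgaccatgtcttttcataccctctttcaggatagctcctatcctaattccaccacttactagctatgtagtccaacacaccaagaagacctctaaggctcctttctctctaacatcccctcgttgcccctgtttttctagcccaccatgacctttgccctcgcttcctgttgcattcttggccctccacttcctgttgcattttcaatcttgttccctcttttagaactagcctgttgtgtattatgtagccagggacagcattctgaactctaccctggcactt
Ccl9: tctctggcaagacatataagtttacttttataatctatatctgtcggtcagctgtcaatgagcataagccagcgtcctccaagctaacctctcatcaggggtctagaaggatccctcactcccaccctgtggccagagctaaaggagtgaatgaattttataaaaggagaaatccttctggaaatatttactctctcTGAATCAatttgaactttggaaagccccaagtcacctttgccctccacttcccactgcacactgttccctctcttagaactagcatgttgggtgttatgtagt
The motifs were searched on both strands as GGAANTTCC and GGGANTTCC (NF-kB), TGANTCA (AP-1), GAAANNGAA (ISRE), TTGCNNCAA (C/EBP) and TTCNNNGAA (STAT). Ccl12 held GGAANTTCC starting 17 bases before the gene start, a motif that 0.928% of 32851 promoters of this length hold. Ccl9 held TGANTCA starting 53 bases before the start, as 7.81% of promoters hold it. Ccl8 and Ccl6 held none of the motifs, and GGGANTTCC (1.68% of promoters), GAAANNGAA (8.56%), TTGCNNCAA (2.08%) and TTCNNNGAA (8.30%) were found in none of the 4. The longest run shared by the promoters of Ccl6 and Ccl9 was GCCCTCCACTTCC, and that shared by Ccl8 and Ccl12 was GCTTTCATTTC. These matches describe the sequence only.

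Compared by group mean per kilobase of annotated exon, Ccl6, Ccl8, Ccl11 and Ccl9 were the 4 most abundant genes of the set in control IWAT of both diets. In obese control IWAT, Ccl9 was above Ccl5, the next gene, in 4 of 6 libraries, with overlapping ranges. In lean control IWAT, Ccl6 was at 57.2 ± 21.5, Ccl8 at 39.3 ± 15.2, Ccl11 at 30.7 ± 6.55 and Ccl9 at 20.9 ± 7.49 CPM per kb (SD, n = 5). The library ranges of neighbours among these 4 overlapped. Ccl5, Ccl12, Ccl2 and Ccl7 followed at means of 4.40 to 2.84 CPM per kb, with ranges that overlapped each other and did not reach that of Ccl9. Ccl4 (0.467 ± 0.132) and Ccl3 (0.434 ± 0.410 CPM per kb; SD, n = 5) were the least abundant, and their ranges overlapped. The order changed in lean tumor-associated IWAT, where Ccl8 came first with 357 ± 211 CPM per kb (SD, n = 5), above Ccl6 in 5 of 5 libraries although their ranges overlapped. In obese tumor-associated IWAT, Ccl6 came first with 363 ± 192 CPM per kb and Ccl8 second with 287 ± 135 CPM per kb (SD, n = 6), again with overlapping ranges. There Ccl2 moved up to the fourth place with 103 ± 32.8 CPM per kb (SD, n = 6), from the seventh in lean control IWAT.

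**Figure D1:**
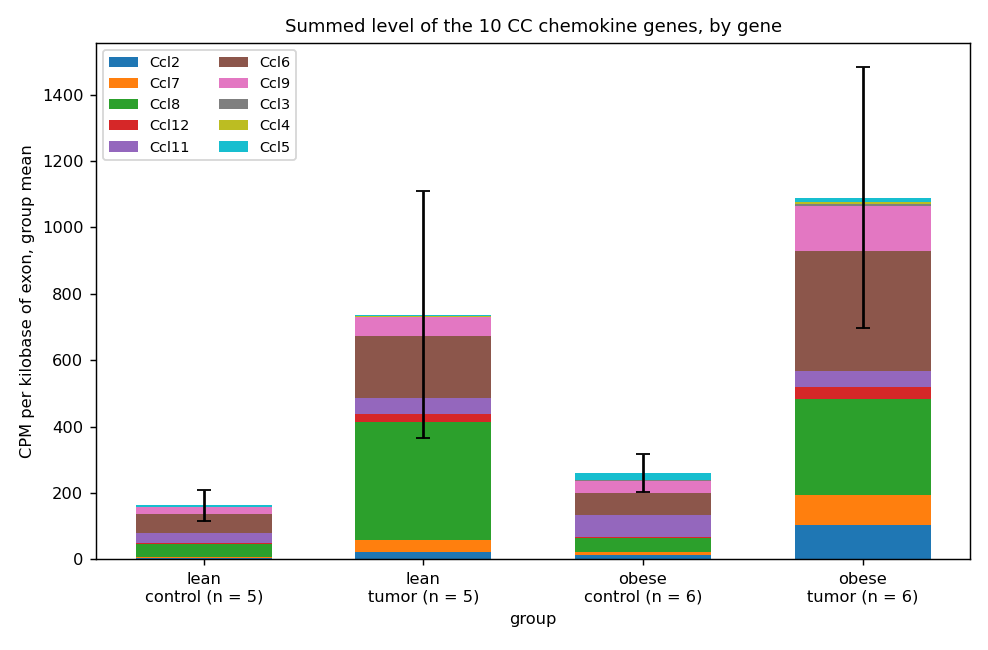
Mean level of each CC chemokine gene in CPM per kilobase of exon, stacked by group; the bar's height is the mean of the sum over the 10 genes and the error bar its SD over libraries (n = 5 lean, n = 6 obese). The sum rose from 162 in lean control to 738 in lean tumor-associated and from 259.9 in obese control to 1089.7 CPM per kb in obese tumor-associated IWAT. Ccl6 and Ccl8 were the largest parts of each bar except that of obese control IWAT, where Ccl6 and Ccl11 were.

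Summed over the 10 genes, the level was 162 ± 47.1 CPM per kb in lean control and 738 ± 373 in lean tumor-associated IWAT (SD, n = 5). In obese mice it was 259.9 ± 57.7 CPM per kb in control and 1089.7 ± 393 in tumor-associated IWAT (SD, n = 6). Ccl8 made up 48.4% of the sum in lean tumor-associated IWAT and Ccl6 33.3% in obese tumor-associated IWAT. The share of Ccl11 in obese mice was 24.8% in control and 4.54% in tumor-associated IWAT.

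The question of the tumor comparison was which genes of the tissue differ between the pad that carries a tumor and the pad that does not. In lean mice, 6 of the 10 chemokine genes were higher in tumor-associated IWAT, at an adjusted p under 0.05 in edgeR's quasi-likelihood test, where 3.27% of all 14458 genes were higher. They were Ccl2, Ccl7, Ccl8, Ccl12, Ccl6 and Ccl9. In obese mice the same 6 and also Ccl3 and Ccl4 were higher, 8 of 10, where 26.8% of all genes were higher. None of the 10 was lower in either diet, where 0.913% of all genes were lower in lean and 27.7% in obese mice. The median log2 fold change of the 10 genes was 1.58 in lean and 2.17 in obese mice, beside 0.01 and -0.02 over all genes tested. The libraries of the groups did not overlap for 6 of the 10 genes in lean mice (5.33% of all genes, higher in tumor-associated IWAT) and for 5 of 10 in obese mice (9.95%). Ccl2, Ccl7, Ccl8 and Ccl12 are named in the study from these same samples, so their count is not independent evidence of a direction.

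**Figure D2:**
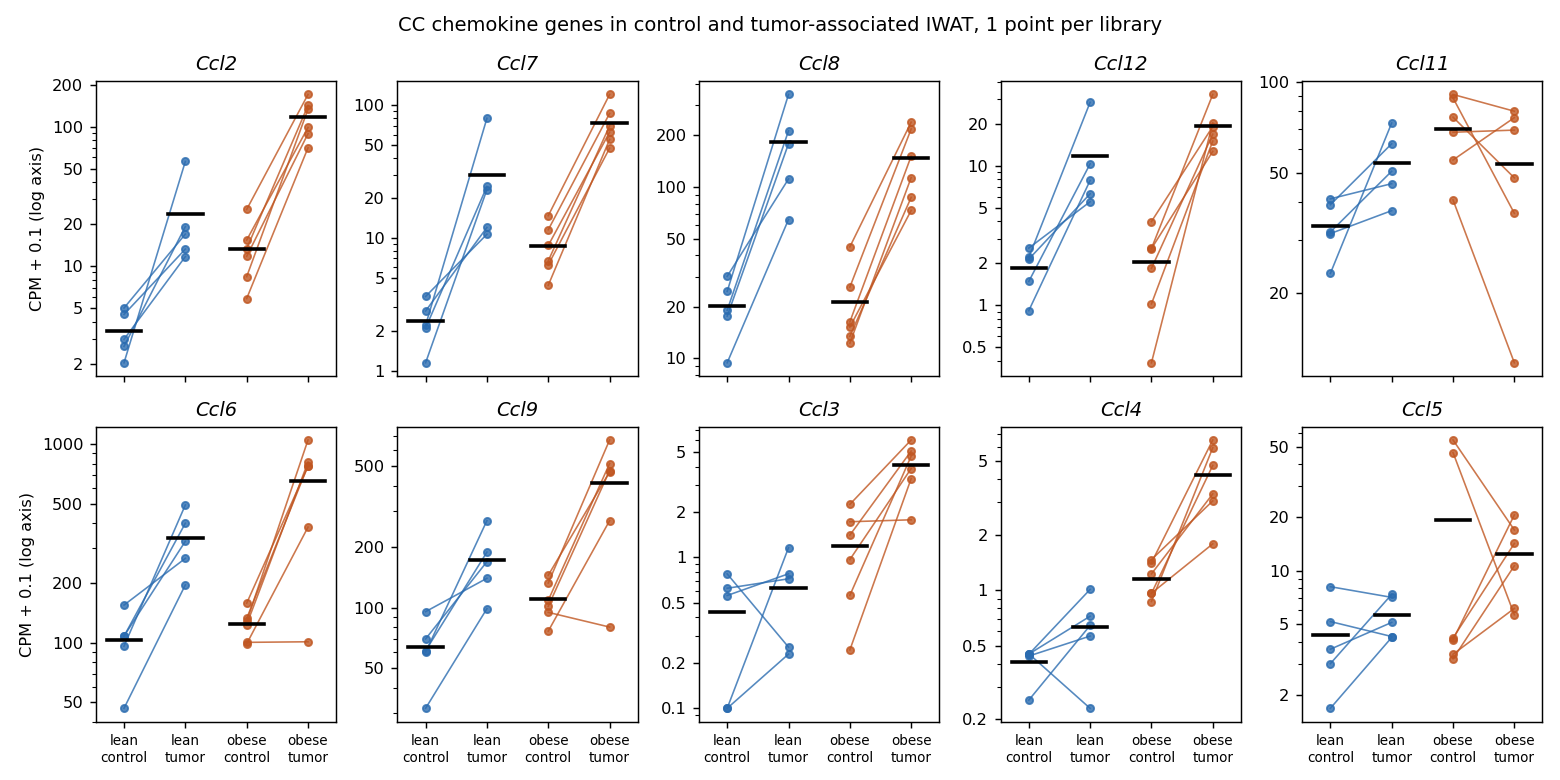
CPM of the 10 CC chemokine genes in each library, plotted as CPM + 0.1 on a log axis; lines join the pads of one mouse, lean in blue (n = 5) and obese in orange (n = 6), and black bars are group means. Ccl2, Ccl7, Ccl8 and Ccl12 were higher in the tumor-associated pad of 11 of 11 mice, whereas Ccl11 and Ccl5 moved both ways in obese mice and a single obese tumor-associated library lies low for Ccl6, Ccl9 and Ccl11.

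Ccl2 encodes the main ligand of the monocyte receptor CCR2. In lean control IWAT it was at 2.55, 1.92, 4.90, 4.40 and 2.88 CPM, and in lean tumor-associated IWAT at 19.1, 56.1, 16.8, 13.1 and 11.6 CPM. The lowest tumor-associated library was above the highest control library, and mouse 2 was far above the other tumor-associated libraries. The log2 fold change was 2.80 (SE, standard error, 0.46, edgeR adjusted p = 0.00142), and 2.17 without lean tumor-associated mouse 2 (edgeR adjusted p = 0.00398). In obese mice, control IWAT ranged from 5.75 to 25.3 CPM with a median of 12.4, and tumor-associated IWAT from 70.4 to 169.8 CPM with a median of 116. These groups did not overlap either, and the log2 fold change was 3.14 (SE 0.39, edgeR adjusted p = 7.22e-06).

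Ccl7, a second CCR2 ligand and the neighbour of Ccl2 on the chromosome, was at 1.05, 2.10, 1.99, 3.52 and 2.71 CPM in lean control and at 23.0, 79.6, 24.3, 10.6 and 11.9 CPM in lean tumor-associated IWAT. Mouse 2 was again the highest and the groups did not overlap. In obese mice it was at 4.30 to 14.6 CPM (median 7.65) in control and at 47.3 to 120.4 CPM (median 66.1) in tumor-associated IWAT, also without overlap. The log2 fold change was 3.74 in lean mice (SE 0.53, edgeR adjusted p = 0.000383; 2.95 without lean tumor-associated mouse 2) and 3.09 in obese mice (SE 0.43, edgeR adjusted p = 2.37e-05). Per kilobase, the ratio of Ccl2 to Ccl7 lay between 0.488 and 1.73 in all 22 libraries, while Ccl2 itself ran from 1.92 to 169.8 CPM. The ratio was 0.626 ± 0.161 in lean (SD, n = 5) and 1.15 ± 0.284 in obese tumor-associated IWAT (SD, n = 6), without overlap. In control IWAT it was 1.15 ± 0.537 in lean (SD, n = 5) and 1.09 ± 0.282 in obese mice (SD, n = 6), with overlap.

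Ccl8, a monocyte chemoattractant whose mouse protein acts through CCR8, was at 17.5, 24.5, 19.0, 9.33 and 30.0 CPM in lean control and at 179, 346, 212, 64.5 and 111 CPM in lean tumor-associated IWAT. The lowest value in each of these groups came from mouse 6, and the groups did not overlap. Obese control IWAT held 12.2 to 44.6 CPM (median 15.7) and obese tumor-associated IWAT 72.9 to 238.7 CPM (median 132). The pads did not overlap in obese mice either, while the ranges of lean and obese mice overlapped in each kind of pad. The log2 fold change was 3.19 in lean (SE 0.47, edgeR adjusted p = 0.000527) and 2.78 in obese mice (SE 0.42, edgeR adjusted p = 4.46e-05).

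Ccl12, which encodes a further CCR2 ligand, was at 0.813, 2.10, 1.38, 2.46 and 2.03 CPM in lean control and at 7.72, 28.3, 10.2, 5.41 and 6.18 CPM in lean tumor-associated IWAT. In obese mice it was at 0.286 to 3.87 CPM (median 2.09) in control and at 12.5 to 32.2 CPM (median 17.8) in tumor-associated IWAT. Neither diet showed overlap between the pads. Its log2 fold change was 2.73 in lean mice (SE 0.52, edgeR adjusted p = 0.00442; 2.07 without lean tumor-associated mouse 2) and 3.28 in obese mice (SE 0.47, edgeR adjusted p = 2.77e-05). Only 7 to 14 counts stood behind the lean control values and as few as 2 behind the lowest obese control value. For Ccl2, Ccl7, Ccl8 and Ccl12 the tumor-associated pad was higher in 5 of 5 lean and in 6 of 6 obese mice.

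Ccl6 and Ccl9, neighbours that encode CCR1 ligands of myeloid cells, rose in both diets by smaller folds from higher levels. In lean mice Ccl6 was at 107.8, 96.0, 108.0, 46.6 and 155 CPM in control and at 400.3, 495, 325, 196 and 266 CPM in tumor-associated IWAT, without overlap. Its log2 fold change was 1.71 (SE 0.41, edgeR adjusted p = 0.0225). Ccl9 was at 61.1, 60.0, 69.8, 31.7 and 95.3 CPM in lean control and at 188, 269, 168, 98.6 and 139 CPM in lean tumor-associated IWAT, a log2 fold change of 1.44 (SE 0.39, edgeR adjusted p = 0.0402). Both were higher in 5 of 5 lean mice, and in both pads mouse 6 was the lowest. The calls in lean mice lay near the threshold. That of Ccl6 was lost when lean control mouse 2, 3 or 6, or lean tumor-associated mouse 0 or 2 was left out (edgeR adjusted p = 0.0569 to 0.0962, log2 fold change 1.52 to 1.73). That of Ccl9 was lost without any one of 10 of the 22 libraries, which were lean control mice 0, 2, 3 and 6, lean tumor-associated mice 0, 2, 3 and 9, obese control mouse 3 and obese tumor-associated mouse 0 (edgeR adjusted p = 0.0505 to 0.166, log2 fold change 1.21 to 1.49).

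In obese mice, Ccl6 was at 98.7 to 158 CPM (median 126) in control and at 101 to 1052 CPM (median 778) in tumor-associated IWAT. Ccl9 was at 76.4 to 144 CPM (median 105) in control and at 79.96 to 672 CPM (median 471) in tumor-associated IWAT. The groups overlapped for both genes through 1 library, tumor-associated mouse 4, with 101 CPM of Ccl6 and 79.96 CPM of Ccl9, while the other 5 libraries held at least 383 and 268 CPM. This library also had the lowest macrophage sum of its group (1567 CPM, against 2103 to 4131 in the others), and the part of that in the result was not tested. The log2 fold change was 2.40 for Ccl6 (SE 0.39, edgeR adjusted p = 7.44e-05) and 1.91 for Ccl9 (SE 0.36, edgeR adjusted p = 0.000269). Without mouse 4 the values were 2.61 and 2.11 (edgeR adjusted p = 2.49e-06 and 1.07e-05). The ratio of Ccl6 to Ccl9 per kilobase was 2.72 ± 0.184 in lean control and 3.32 ± 0.186 in lean tumor-associated IWAT (SD, n = 5), without overlap. In obese mice it was 1.94 ± 0.205 in control and 2.59 ± 0.277 in tumor-associated IWAT (SD, n = 6), with overlap. Its range over the 22 libraries was 1.64 to 3.62, and obese tumor-associated mouse 4 lay within its group's range of 2.14 to 2.91.

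Ccl3 and Ccl4 encode macrophage inflammatory proteins, which attract monocytes and T cells, and both were close to the limit of detection in lean mice. Ccl3 had 0, 3, 3, 0 and 4 counts in lean control and 7, 4, 5, 1 and 1 counts in lean tumor-associated IWAT, or 0.332 ± 0.314 and 0.529 ± 0.392 CPM (SD, n = 5). Ccl4 had 3, 2, 1, 2 and 2 counts in lean control and 6, 4, 4, 1 and 3 counts in lean tumor-associated IWAT, or 0.308 ± 0.0870 and 0.533 ± 0.282 CPM (SD, n = 5). A difference between the pads of lean mice was not detectable at this depth (log2 fold change 0.69, SE 0.78, edgeR adjusted p = 0.830 for Ccl3, and 0.74, SE 0.48, edgeR adjusted p = 0.596 for Ccl4). In obese mice, Ccl3 was at 0.144 to 2.15 CPM (median 1.09) in control and at 1.68 to 5.91 CPM (median 4.19) in tumor-associated IWAT, and the groups overlapped through the lowest tumor-associated library. Ccl4 was at 0.767 to 1.36 CPM (median 0.993) in control and at 1.68 to 6.42 CPM (median 3.93) in tumor-associated IWAT, without overlap. Ccl4 was higher in the tumor-associated pad of 6 of 6 obese mice, and Ccl3 in 5, while in mouse 3 it had 13 counts in each pad (1.62 and 1.68 CPM). The log2 fold change was 1.86 for Ccl3 (SE 0.54, edgeR adjusted p = 0.00667) and 1.95 for Ccl4 (SE 0.33, edgeR adjusted p = 0.000109). The obese control values rest on 1 to 15 counts for Ccl3 and 5 to 11 for Ccl4.

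Ccl11, the eotaxin gene, did not pass the test in either tumor comparison. Lean control IWAT held 31.7, 23.1, 39.0, 31.3 and 40.9 CPM and lean tumor-associated IWAT 50.4, 72.9, 62.2, 37.3 and 45.9 CPM. The tumor-associated pad was the higher of the pair in 5 of 5 lean mice, but the groups overlapped (log2 fold change 0.69, SE 0.35, edgeR adjusted p = 0.335). Obese control IWAT held 40.5 to 90.7 CPM (median 72.1) and obese tumor-associated IWAT 11.6 to 79.8 CPM (median 58.5). There the tumor-associated pad was higher in 2 of 6 mice, and the lowest value came from mouse 4 (log2 fold change -0.38, SE 0.31, edgeR adjusted p = 0.306, and -0.19 without mouse 4). Of the 5 eosinophil genes listed, Epx had 0 counts in every library and only Ccr3 passed the filter. The summed level of the 5 was 0.541 to 9.19 CPM over all libraries.

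**Figure D3:**
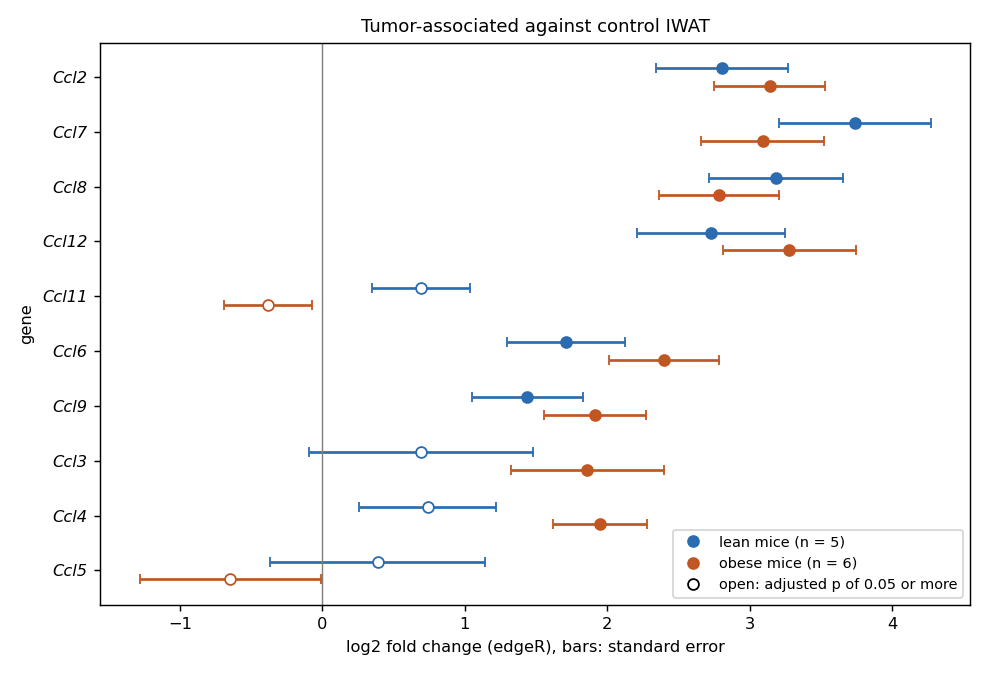
Log2 fold changes of the 10 CC chemokine genes in tumor-associated against control IWAT, from edgeR, for lean (blue, n = 5) and obese mice (orange, n = 6); bars are standard errors, and open points had an adjusted p of 0.05 or more. Filled points of both colors are seen for Ccl2, Ccl7, Ccl8, Ccl12, Ccl6 and Ccl9, a filled point for obese mice alone for Ccl3 and Ccl4, and open points for Ccl11 and Ccl5.

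Ccl5, which is made mainly by T and NK cells and acts through CCR1 and CCR3, differed most between libraries of one group. Lean control IWAT held 2.90, 8.05, 3.52, 1.58 and 5.09 CPM and lean tumor-associated IWAT 7.27, 6.99, 5.03, 4.12 and 4.17 CPM, with overlap (log2 fold change 0.39, SE 0.75, edgeR adjusted p = 0.947). Obese control IWAT held 2 levels, mice 1 and 3 at 46.3 and 54.5 CPM and the other 4 mice at 3.10 to 4.09 CPM. These are the libraries that were high in B cell genes. Their T and NK cell list was at 169.9 and 171 summed CPM, against 6.44 to 11.0 CPM in the other 4, and all 5 genes of the B cell list and all 8 of the T and NK cell list were detected in the series. Obese tumor-associated IWAT held 5.56 to 20.6 CPM (median 12.4), highest in mice 4 (20.6 CPM) and 3 (16.9 CPM), which also had the highest T and NK cell sums of that group (51.8 and 62.4 CPM, against 13.8 to 28.4 in the others). Over the 6 obese mice the log2 fold change was -0.64 (SE 0.64, edgeR adjusted p = 0.404), and 0.35 with the mouse as a block (edgeR adjusted p = 0.680). Without obese control mice 1 and 3, a choice made after these values were seen, it was 1.75 (SE 0.41, edgeR adjusted p = 0.00184), and 1.30 (SE 0.39, edgeR adjusted p = 0.0108) when obese tumor-associated mice 3 and 4 were left out as well. The direction for Ccl5 in obese mice therefore depended on these libraries, and the part of lymphocytes in it was not tested.

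**Figure D4:**
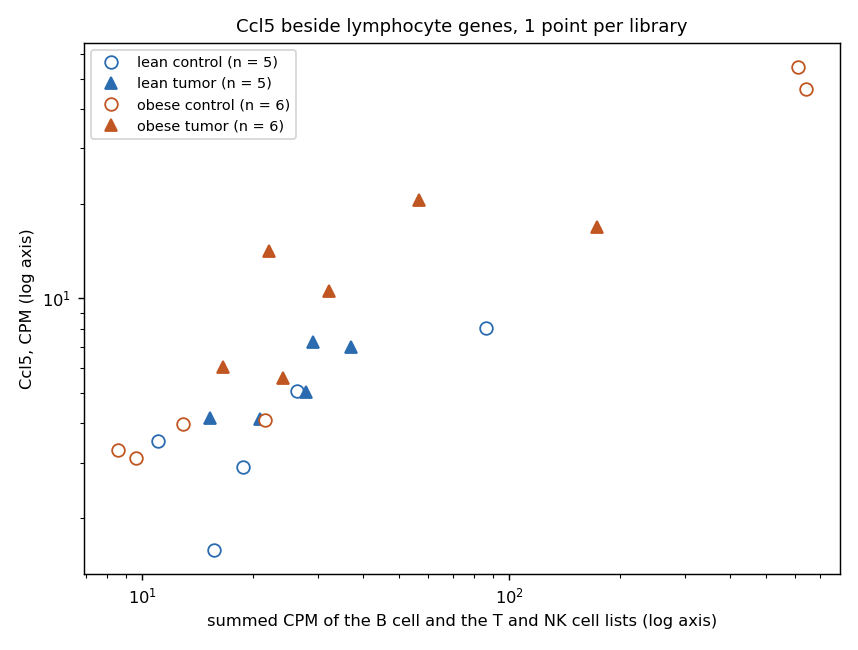
Ccl5 in CPM against the summed CPM of the B cell and the T and NK cell lists, both on log axes, 1 point per library (circles control, triangles tumor-associated; blue lean, orange obese). Obese control mice 1 and 3 lie at the upper right with 46.3 and 54.5 CPM of Ccl5, apart from the other 4 obese control libraries at 3.10 to 4.09 CPM.

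The comparison of diets asked which genes differ between obese and lean mice within one kind of pad. It shares libraries with the tumor comparisons, so the values are given side by side and not as independent results. The study reported larger tumors in its obese mice, so diet and tumor size cannot be told apart in tumor-associated IWAT. In control IWAT, 5 of the 10 genes were higher in obese mice, Ccl2, Ccl7, Ccl11, Ccl4 and Ccl5, where 9.54% of all genes were higher, and in tumor-associated IWAT 5 were higher, Ccl2, Ccl7, Ccl3, Ccl4 and Ccl9, where 24.7% of all genes were higher. None of the 10 was lower. The median log2 fold change of the 10 genes was 1.39 in control and 1.21 in tumor-associated IWAT, beside 0.04 and 0.03 over all genes tested. For 3 of the 10 genes the libraries of obese and lean control IWAT did not overlap (7.44% of all genes), and for 3 those of tumor-associated IWAT (11.0%). Without obese control mice 1 and 3, the count in control IWAT was 3, with Ccl2, Ccl7 and Ccl4.

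Ccl2 and Ccl7 passed the test of diet in both kinds of pad, and Ccl8 and Ccl12 in neither. In control IWAT, Ccl2 was at 13.2 ± 6.84 CPM in obese (SD, n = 6) and 3.33 ± 1.26 CPM in lean mice (SD, n = 5), without overlap, and the log2 fold change was 1.99 (SE 0.45, edgeR adjusted p = 0.00490). In tumor-associated IWAT it was 117 ± 37.3 CPM (SD, n = 6) in obese and 23.4 ± 18.6 CPM (SD, n = 5) in lean mice, a log2 fold change of 2.33 (SE 0.40, edgeR adjusted p = 0.000146), again without overlap, and 2.95 without lean tumor-associated mouse 2. Ccl7 was higher in obese mice by 1.95 in control IWAT (SE 0.52, edgeR adjusted p = 0.0144) and by 1.30 in tumor-associated IWAT (SE 0.42, edgeR adjusted p = 0.0160) on the log2 scale, and by 2.07 in the latter without lean tumor-associated mouse 2. These calls of Ccl7 were lost in control IWAT without both pads of lean mouse 0 (1.74, edgeR adjusted p = 0.0519), and in tumor-associated IWAT without both pads of lean mouse 9 (1.10, edgeR adjusted p = 0.0543) or with these groups alone (1.29, edgeR adjusted p = 0.0567). By contrast, Ccl8 in control IWAT was at 21.2 ± 12.5 CPM in obese (SD, n = 6) and 20.1 ± 7.77 CPM in lean mice (SD, n = 5; log2 fold change 0.09, SE 0.44, edgeR adjusted p = 0.917). In tumor-associated IWAT it was 147 ± 68.8 CPM (SD, n = 6) in obese and 183 ± 108 CPM (SD, n = 5) in lean mice (log2 fold change -0.31, SE 0.41, edgeR adjusted p = 0.542). Ccl12 did not pass the test in control (log2 fold change 0.19, SE 0.52, edgeR adjusted p = 0.849) or tumor-associated IWAT (0.74, SE 0.44, edgeR adjusted p = 0.174), but was called in the latter without lean tumor-associated mouse 2 (1.38, edgeR adjusted p = 0.0103). Whether the diet acted differently on Ccl2 than on Ccl8 was not tested.

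**Figure D5:**
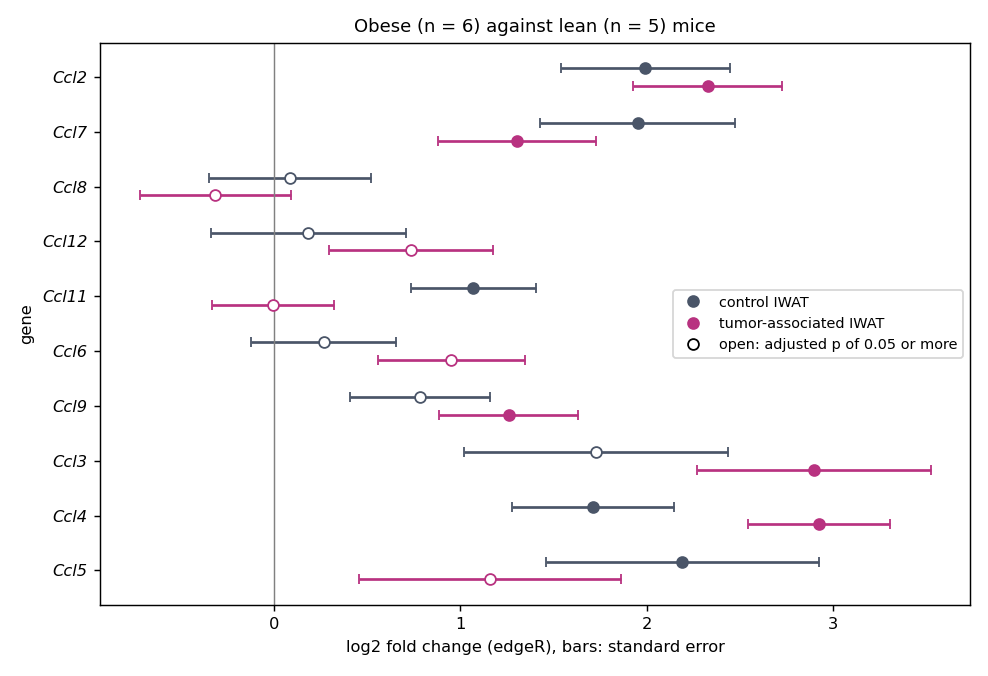
Log2 fold changes of the 10 CC chemokine genes in obese (n = 6) against lean mice (n = 5), from edgeR, for control (grey) and tumor-associated IWAT (pink); bars are standard errors, and open points had an adjusted p of 0.05 or more. Ccl2 and Ccl7 have filled points for both pads, between 1.30 and 2.33, while the points of Ccl8 and Ccl12 are open for both.

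Ccl3 and Ccl4 showed the largest diet difference of the 10 genes in tumor-associated IWAT. Ccl3 was 4.03 ± 1.48 CPM (SD, n = 6) in obese and 0.529 ± 0.392 CPM (SD, n = 5) in lean tumor-associated IWAT, a log2 fold change of 2.90 (SE 0.63, edgeR adjusted p = 0.000940). Ccl4 was at 4.12 ± 1.82 CPM in obese (SD, n = 6) and 0.533 ± 0.282 CPM in lean mice (SD, n = 5), which gave a log2 fold change of 2.92 (SE 0.38, edgeR adjusted p = 1.52e-05). Neither gene had overlapping groups there, though the lean values rest on 1 to 7 counts for Ccl3 and 1 to 6 for Ccl4. In control IWAT, Ccl4 was 1.05 ± 0.253 CPM (SD, n = 6) in obese mice and 0.308 ± 0.0870 CPM (SD, n = 5) in lean mice, without overlap (log2 fold change 1.71, SE 0.43, edgeR adjusted p = 0.0101), and Ccl3 did not pass (1.73, SE 0.71, edgeR adjusted p = 0.0970). The Ccl4 values there rest on 5 to 11 counts in obese and 1 to 3 in lean mice.

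Among the other genes, Ccl11 in control IWAT was at 69.8 ± 19.5 CPM in obese (SD, n = 6) and 33.2 ± 7.08 CPM in lean mice (SD, n = 5), with overlap at 1 end (log2 fold change 1.07, SE 0.34, edgeR adjusted p = 0.0326). This call was lost without lean control mouse 0, 2 or 6 or obese control mouse 0 or 8 (log2 fold change 0.96 to 1.05, edgeR adjusted p = 0.0629 to 0.0802). In tumor-associated IWAT Ccl11 was 53.5 ± 26.5 CPM (SD, n = 6) in obese and 53.8 ± 14.0 CPM (SD, n = 5) in lean mice (log2 fold change -0.01, SE 0.33, edgeR adjusted p = 0.991). Ccl9 was higher in obese tumor-associated IWAT (log2 fold change 1.26, SE 0.37, edgeR adjusted p = 0.00917), and Ccl6 did not pass there (0.95, SE 0.39, edgeR adjusted p = 0.0509). Ccl6 passed without lean control mouse 6, lean tumor-associated mouse 2, or obese tumor-associated mouse 2 or 4 (log2 fold change 0.95 to 1.18, edgeR adjusted p = 0.00240 to 0.0427). In control IWAT neither Ccl6 (0.27, SE 0.39, edgeR adjusted p = 0.692) nor Ccl9 (0.78, SE 0.37, edgeR adjusted p = 0.155) passed; Ccl9 did without obese tumor-associated mouse 4 (0.78, edgeR adjusted p = 0.0415).

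The rise of Ccl5 in obese control IWAT (log2 fold change 2.19, SE 0.73, edgeR adjusted p = 0.0432) rested on mice 1 and 3. Without both, the remaining obese control libraries held 3.62 ± 0.495 CPM (SD, n = 4) and lean control IWAT 4.23 ± 2.48 CPM (SD, n = 5), which gave a log2 fold change of -0.22 (SE 0.42, edgeR adjusted p = 0.799). The call was also lost without obese control mouse 1 or 3 alone and without 10 further single libraries, lean control mice 0, 3, 6 and 9, lean tumor-associated mice 0, 2, 3 and 9 and obese tumor-associated mice 0 and 2 (log2 fold change 1.51 to 2.27 over these 12, edgeR adjusted p = 0.0502 to 0.150). In tumor-associated IWAT Ccl5 was 12.3 ± 6.00 CPM (SD, n = 6) in obese and 5.52 ± 1.52 CPM (SD, n = 5) in lean mice (log2 fold change 1.16, SE 0.70, edgeR adjusted p = 0.182), and 1.16 with an edgeR adjusted p = 0.0134 without obese control mice 1 and 3. Those control libraries are not part of this comparison. All 4 groups share 1 fit and its estimate of the spread, so the tests of Ccl5 do not reflect the spread of the compared groups alone.

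The difference between the tumor change of obese and that of lean mice was tested as an interaction. Diet and tumor size, which was larger in obese mice per the study, cannot be told apart in this difference. None of the 10 genes passed in edgeR, where 4.92% of all genes passed in either direction, and 1 had an unadjusted p under 0.05. DESeq2 called 0 of the 10 as well. That gene was Ccl11 (log2 difference -1.08, SE 0.47, edgeR unadjusted p = 0.0309, adjusted p = 0.117). Ccl4 followed (1.21, SE 0.62, edgeR unadjusted p = 0.0644, adjusted p = 0.176), and the differences of the other 8 genes lay between -1.03 for Ccl5 and 1.17 for Ccl3. Ccl3 and Ccl4, which passed in obese and not in lean mice, were thus not shown to respond differently by diet.

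Of 13 genes for CC chemokine receptors, which include receptors of other ligands, 9 passed the filter on low counts. In lean mice 2 of the 9 were higher in tumor-associated IWAT (3.27% of all genes) and none lower, and in obese mice 4 were higher (26.8% of all genes) and 1 lower (27.7%). Ccr1 rose by 1.41 in lean (edgeR adjusted p = 0.0153; 1.03 without lean tumor-associated mouse 2, edgeR adjusted p = 0.0857) and by 2.68 in obese mice (edgeR adjusted p = 2.41e-06) on the log2 scale. Ccr2, the receptor of CCL2, CCL7 and CCL12, was at 85.6 ± 26.7 and 88.9 ± 18.9 CPM in control and tumor-associated IWAT of lean mice (SD, n = 5; log2 fold change 0.06, edgeR adjusted p = 0.989). In obese mice it rose from 43.0 ± 10.2 to 179 ± 61.3 CPM (SD, n = 6; log2 fold change 2.06, edgeR adjusted p = 4.59e-06), and in control IWAT it was lower in obese than in lean mice (log2 fold change -0.99, edgeR adjusted p = 0.00905). Ccr3 passed in obese mice (log2 fold change 1.07, edgeR adjusted p = 0.0394; -0.16 in lean mice, edgeR adjusted p = 0.979), at 2.53 ± 1.37 against 1.20 ± 0.626 CPM (SD, n = 6). This call was lost without obese control mouse 2, 3, 4 or 8 or obese tumor-associated mouse 0, 1 or 8 (log2 fold change 0.90 to 1.03, edgeR adjusted p = 0.0676 to 0.0983). The scavenging receptor gene Ccrl1 fell by 1.74 on the log2 scale in obese mice (edgeR adjusted p = 0.00779), a call lost without the 3 libraries whose titles carry a further 2 (log2 fold change -1.25, edgeR adjusted p = 0.0703).

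The tumor change of Ccr2 differed between the diets in the interaction test, being larger in obese mice by 2.00 on the log2 scale (SE 0.35, edgeR adjusted p = 0.0310). This call was lost without lean tumor-associated mouse 0, 3 or 9, obese control mouse 0 or 4 or obese tumor-associated mouse 0, with a log2 difference of 1.91 to 2.06 (edgeR adjusted p = 0.0532 to 0.0702). Ccr1 did not pass (1.26, SE 0.43, edgeR adjusted p = 0.0650). It did pass in DESeq2 (1.27, DESeq2 adjusted p = 0.0338), with the mouse as a block (1.28, edgeR adjusted p = 0.0238) and without obese tumor-associated mouse 1 (1.33, edgeR adjusted p = 0.0352). Ccr3 did not pass either (1.24, SE 0.65, edgeR adjusted p = 0.184).

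Of 13 other CC ligand genes listed, 5 passed the filter. None of them was called in lean mice, and 2 of the 5 were lower in obese tumor-associated IWAT, where 27.7% of all genes were lower. Ccl19, a ligand of the lymphocyte receptor CCR7, fell by 2.89 on the log2 scale in obese mice (edgeR adjusted p = 0.0229), with 270 and 283 counts in obese control mice 1 and 3 and 2 to 6 counts in the other 4. Without these 2 libraries it was higher by 1.72 (edgeR adjusted p = 0.0648), without either one of them it fell by 2.15 to 2.25 (edgeR adjusted p = 0.0718 to 0.0796), and with the mouse as a block it fell by 1.35 (edgeR adjusted p = 0.232). Ccl27a fell by 1.22 (edgeR adjusted p = 0.00735). Ccl21a, Ccl21b and Ccl21c had 0 counts in every library.

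Of 20 genes for inducers and regulators of chemokine transcription, 16 passed the filter. In lean mice 2 of the 16 were higher in tumor-associated IWAT, where 3.27% of all genes were higher, among them Stat3 (log2 fold change 0.30, edgeR adjusted p = 0.0220), which encodes a transcription factor of cytokine signaling. Stat3 was lost without lean control mouse 3 or 6 or lean tumor-associated mouse 0, 2 or 9 (edgeR adjusted p = 0.0616 to 0.115), and with the mouse as a block (0.30, edgeR adjusted p = 0.0509). In obese mice 8 of the 16 were higher and none lower, beside 26.8% and 27.7% of all genes. The largest rises were those of Il1b, which encodes a cytokine that induces Ccl2, from 1.06 ± 0.842 to 11.6 ± 7.58 CPM (SD, n = 6; log2 fold change 3.41, edgeR adjusted p = 3.41e-05), and of Irf5 (0.99, edgeR adjusted p = 0.00345).

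Genes with the most similar profile over the 22 libraries were sought by the root mean square difference of centered log2 CPM. The nearest gene to Ccl2 was Ccl7 (0.51), followed by Timp1 (0.63), where Ccl2 itself had an SD of 1.95. The nearest to Ccl6 was Ccl9 (0.30), followed by Alox5ap (0.34) and the macrophage mannose receptor gene Mrc1 (0.36), with an SD of 1.26 for Ccl6. Nearest to Ccl8 were Zbp1 (0.63), Plac8 (0.64) and Siglec1 (0.68), with an SD of 1.64. Nearest to Ccl11 were Fbln5 (0.32), Ifi27l2a (0.32) and Cygb (0.33), with an SD of 0.71, and nearest to Ccl5 were Fcho1 (0.42), Cst7 (0.44) and Sla2 (0.46), with an SD of 1.23. These values describe the libraries, which share the same group differences.

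Markers of some of the cells that can make or follow these chemokines moved with the tumor as well, beside 3.27% of all genes higher and 0.913% lower in lean and 26.8% higher and 27.7% lower in obese mice. Of 10 macrophage genes, 9 were higher in tumor-associated IWAT in lean and 9 in obese mice, and the summed level was 632 to 1179 CPM in lean control, 1325 to 3165 in lean tumor-associated, 992 to 1287 in obese control and 1567 to 4131 CPM in obese tumor-associated IWAT. Of 5 monocyte genes, which include Ccr2, 4 were higher in lean and 5 in obese mice, with sums of 175 to 212, 349 to 705, 107 to 167 and 498 to 965 CPM in the same order. The 7 adipocyte genes included none called in lean mice (median log2 fold change -0.59), although their sums did not overlap, at 9187 to 12015 CPM in lean control and 5680 to 9185 CPM in lean tumor-associated IWAT. In obese mice all 7 were lower in tumor-associated IWAT, with sums of 12600.5 to 22804 CPM in control and 1801 to 11103 CPM in tumor-associated IWAT. Of 6 fibroblast genes, 3 were higher in lean mice, and 3 were higher and 2 lower in obese mice, with sums of 2933 to 4383 and 5061 to 7259 CPM in the pads of lean and 2637 to 4722 and 1804 to 8359 CPM in those of obese mice. Of 8 T and NK cell genes, none was called in lean mice and 1 was higher in obese mice. Of 5 mast cell genes, 1 was higher in lean and 1 lower in obese mice. Of 5 B cell genes, none was called in lean and 1 was lower in obese mice. Of 2 neutrophil genes that passed the filter, 1 was higher in each diet. The part of these cells in the chemokine levels was not tested.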

How the data were processed

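RNA-sequencing was done on 22 libraries of 11 mice, both inguinal pads of each. The deposited values are raw counts per gene symbol, which the authors made by trimming reads with prinseq, mapping them to mm10 with STAR 2.4.0f and counting with HTSeq, per the labels and the methods of the study. The strand setting is not given in the sources used here. The 5 HTSeq entries that name no gene held 57.0% to 65.9% of the counts of a library and were left out, and 0 columns were unused. The source names of the samples gave the groups, and titles and column names were used to match the columns of counts to the samples. Samples of a group are separate mice, and no pair of libraries of the same group agreed within sampling noise (smallest chi-square per degree of freedom 5.69). Pairs across groups were not compared in this way.

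The 14458 of 23420 genes that passed filterByExpr were tested in edgeR 4.0.16 (R 4.3.3) by the quasi-likelihood test after TMM normalization, in 1 fit of the 4 groups, with Benjamini-Hochberg adjustment over all genes tested and a threshold of 0.05. The study used DESeq2, and DESeq2 1.42.0 was an alternative here. Further alternatives were upper-quartile and RLE normalization, no filter, a stricter one that asked for 10 counts or more in each library, the compared groups alone, leaving out single libraries, mice or the libraries that stood apart, and the mouse as a block. The mouse pairs the pads by design. The deviations of both pads from their group means correlated across genes over 0.1 in 5 of 5 lean (median r 0.508) and 4 of 6 obese mice (median r 0.168). The standard errors given with edgeR values were derived from its test, as the absolute log2 fold change divided by the square root of the F statistic. Log2 CPM used a prior count of 2. The test script was tested on simulated data.

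The 10 members and all gene lists were chosen with earlier results of these data known. Values are named for the 10 members, for Ccr1, Ccr2 and Ccr3, for the largest rises and falls among called genes of the other lists, and for the nearest profiles of 5 members. Some genes of the lists are counted but their values are not reported here.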

Additional observations from a re-analysis of the deposited data

Results flagged for a closer look

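Ccl4 in lean control mouse 3 was the lowest of its group, at 0.153 CPM with the next library at 0.339 CPM. This library rests on 1 count, and the group's counts were 3, 2, 1, 2 and 2 in the order of the mouse numbers. The critical value used is meant for continuous data, which such tied low counts are not. On the scale of log2 CPM, the gap of this value to the next took a larger part of the group's range (0.945) than the 95% critical value for 5 samples (0.71). It was the only such value among 52 sets of 1 gene in 1 group, and chance gives about 1 in 20.

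The tumor change of Ccr2 differed between obese and lean mice in the interaction test of edgeR. It was larger in obese mice by 2.00 on the log2 scale (adjusted p = 0.0310). Ccr2 was higher in the tumor-associated pad of obese mice and did not pass the test in lean mice. In control IWAT it was lower in obese than in lean mice, as given above. Under alternative settings the interaction call was kept in 31 and lost in 11.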

How the results depend on the processing

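Of 2762 values of the chemokine genes and the other named genes under alternative settings, 2573 kept their direction and their side of the threshold, 111 lost a call, 23 gained one and 55 turned direction. The cause of these changes was not tested, except where fewer genes or libraries entered by construction. With at least 10 counts in every library, 5 of the 10 chemokine genes were left to test, and the number called was 4 in the obese tumor comparison and 2 in each diet comparison. With the mouse as a replicate block, 6 chemokine genes were called in lean and 8 in obese mice and 0 in the interaction, no call of the 10 changed, unlike those of Stat3, Ccl19 and Ccr1 given above, and Ccl5 in obese mice turned to 0.35. Without filter, the diet difference of Ccl11 in tumor-associated IWAT turned to 0.0035. Without obese control mice 1 and 3, 3 genes were called between diets in control IWAT, and the log2 fold change was 1.75 for Ccl5 and 1.72 for Ccl19 in the obese tumor comparison, -0.28 for Ccl8, -0.36 for Ccl12 and -0.22 for Ccl5 between diets in control IWAT, and 1.37 for Ccl5 in the interaction. With obese tumor-associated mice 3 and 4 also left out, which was likewise chosen after seeing the data, these were 1.30 and 1.37, then -0.27, -0.35 and -0.21, then 0.93, with 0.12 for Ccl11 between diets in tumor-associated IWAT. Without the 3 libraries whose titles carry a further 2, the same values were 1.53 and 1.83, then -0.27, -0.35 and -0.21, then 1.15, with 0.068 for Ccl8 in the interaction and 0.20 for Ccl11 between diets in tumor-associated IWAT. When single libraries or both pads of 1 mouse were left out, the number of chemokine genes called was 4 to 6 in the lean and 8 throughout in the obese tumor comparison, 2 to 6 and 4 to 7 between diets in control and tumor-associated IWAT, and 0 throughout in the interaction. The number in control IWAT fell to 3 without lean control mouse 0 or 6. Over the same settings the log2 fold change ran from -0.081 to 1.33 for Ccl3, -0.080 to 0.24 for Ccr2 and -0.43 to 0.16 for Ccr3 in the lean and from -1.07 to 0.021 for Ccl5 in the obese tumor comparison. Between diets it ran from -0.29 to 0.27 for Ccl8 and -0.15 to 0.41 for Ccl12 in control, and from -0.53 to 0.051 for Ccl8 and -0.15 to 0.20 for Ccl11 in tumor-associated IWAT, and in the interaction from -1.08 to 0.15 for Ccl7. The call of Ccl9 in lean mice was lost with upper-quartile normalization (adjusted p = 0.0503) and without filter (0.0533). Between diets, DESeq2 called Ccl6 in tumor-associated IWAT (adjusted p = 0.0296). With the compared groups alone, Ccl11 was called in the lean tumor comparison (adjusted p = 0.0491), while Ccl7 in tumor-associated and Ccl5 in control IWAT lost their calls between diets (0.0567 and 0.0978). In the same setting, Ccl9 in control and Ccl5 in tumor-associated IWAT gained calls between diets (edgeR adjusted p = 0.0303 and 0.0272). Over all genes, the number called in the interaction moved from 711 to 2365 with DESeq2, 18 without filter, 1607 without the 3 libraries and 1257 without the 4. Dropping lean tumor-associated mouse 0 left 1 gene, and dropping obese tumor-associated mouse 1 gave 3568. With lean mouse 3 dropped entirely, the interaction held 0 genes. In the lean tumor comparison the number rose from 605 to 925 with DESeq2, 1437 with these groups alone, 1185 without the 3 libraries and 1102 without the 4. It fell to 421 without filter, to 183 when lean tumor-associated mouse 2 was dropped, and to 119 when its control pad was dropped too. The shares of all genes given for these comparisons, 4.92% and 3.27%, thus depended on single libraries. Depth limits Ccl3, Ccl4, Ccl5, Ccl7 and Ccl12, each with under 10 counts in at least 1 library of lean mice. In obese mice, 4 libraries for Ccl3, 5 for Ccl4 and 2 for Ccl12 held under 10 counts.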
